A study of Mus musculus with 2 samples.

Results

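The clustered protocadherin locus of mouse chromosome 18 was taken as a window of 1.3 Mb (build mm8) that is meant to cover the alpha, beta and gamma protocadherin clusters and their flanks. Members were chosen by position alone, though with earlier results of these data known. Every genomic probe starting in the window was taken, and probes whose starts lie at most 500 bp apart were joined into a region. This gave 36 of 90526 distinct genomic probes on the array, in 11 groups, and 33 of the probes carried measurable signal. The study measured DNA methylation in the hypothalamus of FVB/NJ females, taken at postnatal day 180, that had been suckled in small litters (SL, 4 pups, early postnatal overnutrition) or in control litters (C, 9 pups). DNA of 5 hypothalami made a pool, and 2 pools per group (10 hypothalami) were cohybridised as SL against C on 2 arrays with the dyes exchanged, SL in Cy5 on array 1 and in Cy3 on array 2. No other treatment or allele was named, the mice of both groups shared strain, sex and age, and pooling leaves no value for a single animal. The sources used here do not tie a pool to an array. Both arrays are therefore treated as separate pairs of pools, and p-values rest only on the spread between the arrays, which may be technical. Limma moderates that spread over the whole array. The SE and p of a member therefore do not show how closely its own 2 values agreed.

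The protocadherins of this locus are cell-adhesion proteins of neurons. Each variable exon has a promoter of its own, neurons choose among these promoters, and the resulting combinations give a neuron a surface identity by which its branches recognise and avoid each other. DNA methylation of the variable promoters, together with the insulator protein CTCF, takes part in that choice, and the alpha and gamma variable exons are spliced to constant exons shared within the cluster, whereas the beta genes have no constant exons. In the RefSeq gene table (GRCm38.p6, used for names and order only) the locus holds 14 Pcdha, 22 Pcdhb and 22 Pcdhg genes in that order, with Slc25a2 and Taf7 between beta and gamma, Zmat2 before the alpha cluster and Diaph1 after the gamma cluster. The array files give positions on mm8 and no gene names, so no probe was assigned to a gene, exon or promoter.

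The assay cuts CCCGGG with SmaI where the site is unmethylated and then with XmaI where it is methylated, and amplifies fragments with XmaI ends. A high signal therefore reports a fragment methylated at both ends, on a relative scale and not as a percentage. The probes of the locus lay in 5 short stretches, together 9394 bp or 0.723% of the window, so the values below describe those stretches and not the clusters as a whole. Stretch 1 ran from 36857829 to 36859511 with 6 probes, and stretch 2 from 37132581 to 37133409 with 4. Stretch 3 ran from 37600010 to 37601833 with 4 probes. Stretch 4, the most densely covered, ran from 37946003 to 37948903 with 16 probes in a single region, and stretch 5 from 38088582 to 38090738 with 6. Between the stretches lay gaps of 140 to 467 kb (139.7, 273.1, 344.2 and 466.6 kb) without a probe in the window.

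The fragment signal differed greatly from stretch to stretch in the same order in SL and C. On array 1 the median C signal was 879 over the 3 measurable probes of stretch 1, 17905 in stretch 2, 2059 in stretch 3, 13891 in stretch 4 and 5954 in stretch 5. On array 2 the C medians were 215, 15027, 1160, 12922 and 4241 in the same order. Stretches 2 and 4 were thus bright and stretch 1 dim on both arrays, and SL showed the same order, with array 1 medians of 374, 28617, 2055, 22180 and 7645. Over the 33 measurable probes the log2 signals of any 2 of the 4 channels correlated with Pearson's r between 0.960 and 0.998, and the range was 0.959 to 0.991 over the 2388 other chromosome 18 probes. By rank the locus was lower, with Spearman's rho between 0.879 and 0.976, against 0.962 to 0.992 over the other chromosome 18 probes. The points share slide, probe set and base composition, so this is a description. A probe's brightness also depends on its own sequence, and no order of methylation between probes can be read from it.

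**Figure D1:**
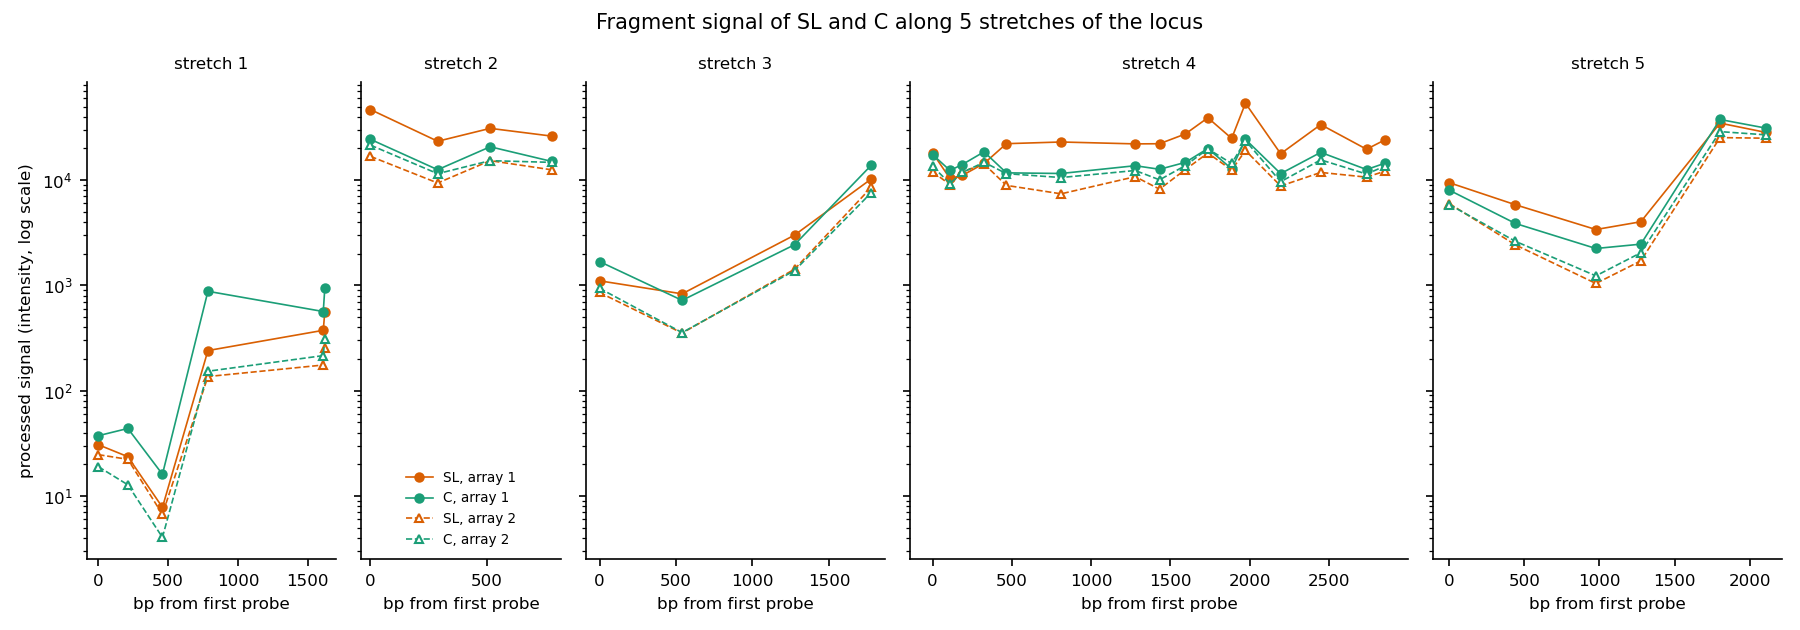
Processed signal (intensity, log axis) of each of the 36 probes against its distance in bp from the first probe of its stretch, for SL (orange) and C (green) on array 1 (filled circles) and array 2 (open triangles). The 4 lines follow the same course in stretches 2, 3 and 5. In stretch 4 only SL on array 1 rises between the probes at 37946327 and 37946468. In stretch 1 only C on array 1 falls between the probes at 36858614 and 36859441. SL on array 1 lies above the others in stretch 2 and most of stretch 4. Stretches 2 and 4 stay at 7410 or above, and the first 3 probes of stretch 1 lie below 44.

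Set beside the rest of its chromosome, the locus was bright. The 6 regions with at least 2 measurable probes had a median C signal of 9054 on array 1 and 7157 on array 2, against 1296 and 703 for the 515 other chromosome 18 regions. The difference of the medians on the log2 scale was 2.80 on array 1 and 3.35 on array 2 for C, a mean of 3.08 ± 0.38 (SD, n = 2), and 3.53 and 3.19 for SL. Of the measurable locus probes 23 of 33 (69.7%) fell in the brightest quintile of the array, against 15.5% of the other chromosome 18 probes. Of these 23 probes 16 came from stretch 4 and 4 from stretch 2, so the share of probes in that quintile rests mainly on those 2 places. The log2 difference in C signal, by contrast, was taken between medians, over 6 regions in the locus. With the single-probe regions counted as well it was 1.24, and with 100 kb trimmed from each end of the window it was 3.98.

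No region of the locus was called different between SL and C. With limma (adjusted over 18547 regions) 0 of the 6 tested regions passed an adjusted p under 0.05, and 0 had an unadjusted p under 0.05. Over the whole array 0.00539% of regions passed the adjusted and 2.07% the unadjusted threshold. Agreement between the arrays past 1.5-fold was seen in 0 of the 6, where the whole array had 0.226% and the other chromosome 18 regions 0.388%. Opposite changes past 1.5-fold were seen in 0 of the 6 as well, against 2.29% and 3.69%. The moderated standard errors (SE) lay between 0.33 and 0.35 on the log2 scale, so the 95% intervals were wide, and a 1.5-fold difference in at least 1 direction lay inside each of the 6. With 2 arrays, the smallest p of an exact sign-flip test (two-sided) is 0.5.

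On array 1 alone 3 of the 6 regions were past 1.5-fold. The regions at 37132581 and 38089558 were higher in SL, as were 13.2% of all regions and 7.96% of the other chromosome 18 regions. The region at 36859441 was lower in SL, as were 14% of all regions and 20.4% of the others on the chromosome. On array 2 none of the 6 was past 1.5-fold, against 4.02% of all regions and 5.63% of the others on the chromosome. The regions at 37132581 and 38089558 had the opposite sign there, at -0.18 and -0.21 (log2 SL over C), and the region at 36859441 was again lower in SL, at -0.25.

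Stretch 1 held the dimmest probes, and it was the stretch in which every measurable probe was lower in SL on both arrays, a description made after the values were seen. These were only 3 probes, 2 of which overlap by 49 bases, and 20.5% of the other chromosome 18 probes were lower on both arrays. The first 3 probes of stretch 1 (starts 36857829, 36858040 and 36858288) were not well above background in any of the 4 channels, with signals between 4.04 and 43.7. The next probe, 326 bp downstream at 36858614, was well above background throughout. Its SL signal was 240.3 on array 1 and 136 on array 2, and its C signal was 879 and 153. Its log2 SL over C was -1.91 on array 1 and only -0.13 on array 2, so the 3.76-fold excess of C rested on array 1. This probe had the lowest p of the locus in the probe-wise limma fit (unadjusted p = 0.0266, adjusted p = 0.999985), and it was the 1 of 33 locus probes with an unadjusted p under 0.05, a threshold that 1.69% of all probes passed. After adjustment over 86472 probes 0 of 33 passed, against 0.413% of all probes. The fit gave all 33 the same SE of 0.46, so these p-values do not reflect how far a probe's own arrays lay apart.

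The region at 36859441 to 36859511, the other end of stretch 1, was measured by 2 probes that overlap by 49 bases, so they are close to a repeat of the same measurement. The probe at 36859441 had SL signals of 374 and 175 on arrays 1 and 2, with C at 565 and 215. The probe at 36859452 had SL at 563 and 257 and C at 938 and 313. SL lay below C in all 4 comparisons. Both probes have 60 bases, and the other chromosome 18 probes of that length had median log2 SL over C of -0.40 on array 1 and -0.01 on array 2. The region's log2 SL over C of -0.70 (array 1) and -0.25 (array 2) averaged to -0.48 ± 0.34 (SE, n = 2, limma adjusted p = 0.9995) with a 95% interval from -1.18 to 0.23. Among the 6 tested regions it had the largest difference that ran the same way on both arrays, and it did not pass the test.

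Stretch 2 was uniformly bright, and its direction turned between the arrays. All 4 probes of the region from 37132581 to 37133409 were well above background in every channel, and the region's SL signal was 30722 on array 1 and 13192 on array 2, where C gave 17594 and 15375. On array 1 the 4 probes ranged from 0.54 to 0.90 in log2 SL over C, so every probe was higher in SL. On array 2 they ranged from -0.31 to 0.04, with 3 of 4 lower in SL. The region values of 0.77 and -0.18 averaged to 0.29 ± 0.35 (SE, n = 2, limma adjusted p = 0.9995), and its interval from -0.44 to 1.02 reached 2.03-fold higher and 1.36-fold lower in SL. Read as Cy5 over Cy3, that is, by dye and not by litter, it stood at 0.47, the largest dye contrast among the 6 regions, with limma adjusted p = 0.77. None of the 6 passed that contrast, which 2.6% of all regions did, and 0 had an unadjusted p under 0.05, against 8.28%.

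Stretch 3 consisted of 4 probes more than 500 bp apart, each counted as a region of its own and tested only as a probe. Their signal dipped and then climbed along 1824 bp: C on array 1 was 1685 at 37600010, 721 at 37600550, 2433 at 37601285 and 13822 at 37601786. The same order held for SL on array 1 and for both groups on array 2, where C was 938, 356, 1382 and 7582. The middle probes had log2 SL over C near 0, 0.17 and 0.27 on array 1 and 0.03 and 0.08 on array 2. The first probe had -0.65 on array 1 and -0.09 on array 2. The last had -0.47 and 0.21, opposite signs on the arrays. None of the 4 passed the probe-wise limma test.

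Stretch 4 gave the most detailed profile, 16 probes over 2901 bp, all well above background in all 4 channels. Only 3 of the 515 other chromosome 18 regions held over 15 probes. Array 1 gave 22035 for SL against 14695 for C, and array 2 gave 11388 against 13070. The ratio was 0.55 on the first array (log2 SL over C) and -0.16 on the second, which averages to 0.19 ± 0.34 (SE, n = 2, limma adjusted p = 0.9995) with a 95% interval from -0.52 to 0.91. As in stretch 2, SL was the higher group on array 1 and the lower on array 2.

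Inside stretch 4 the array 1 ratio changed abruptly between the probe ending at 37946373 and the probe starting at 37946468. The first 4 probes (371 bp) had log2 SL over C from -0.41 to 0.01, with a mean of -0.27 ± 0.19 (SD over probes), and the following 12 probes (2436 bp) had 0.59 to 1.1, with a mean of 0.82 ± 0.16. The 2 sets do not overlap, and the step between probes 4 and 5, 1.29, was the largest of the 15 steps between neighbours on array 1, where the next largest was 0.51.

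On array 2 the same boundary showed a smaller step the other way. The first 4 probes had -0.13 to 0.06 (mean -0.02 ± 0.08, SD over probes) and the following 12 had -0.47 to -0.06 (mean -0.20 ± 0.13), so these sets overlap. The step at the boundary was -0.32, second in size among the 15 on that array. The difference of the means, later minus earlier probes, was 1.08 on array 1 and -0.19 on array 2 in log2 SL over C, a mean of 0.45 ± 0.90 (SD, n = 2). Read as Cy5 over Cy3 it was 1.08 and 0.19. The Cy5 over Cy3 ratio was thus higher past the boundary on both arrays, with SL in Cy5 on array 1 and C in Cy5 on array 2. The boundary was picked after the values were seen, so it has no test.

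Spot error, as the scanner software gives it, was far smaller than the array 1 step. Over the 33 probes it ranged from 0.20 to 0.27 (log2) on array 1 and from 0.20 to 0.22 on array 2. The array 2 step at the boundary, -0.32, was nearer in size to the error of a single spot. Median probe lengths of the 2 sets were 47.5 and 46.5 bases, but the ranges differed. The first 4 probes had 46 to 50 bases and the later ones 45 to 60, with 60 at the probe just past the boundary. Any part of probe length in the step was not tested. Spreads and steps of this size also occurred elsewhere on the chromosome, though whether those regions split into 2 runs was not tested. Among 73 other chromosome 18 regions with at least 8 measurable probes, 14 had an SD over probes on array 1 at or above the 0.51 of stretch 4, and 7 had a largest neighbour step at or above its 1.29. On array 2 the values of stretch 4 were among the smaller ones: 56 of the 73 had an SD at or above its 0.14, and 51 a largest step at or above its 0.32.

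**Figure D2:**
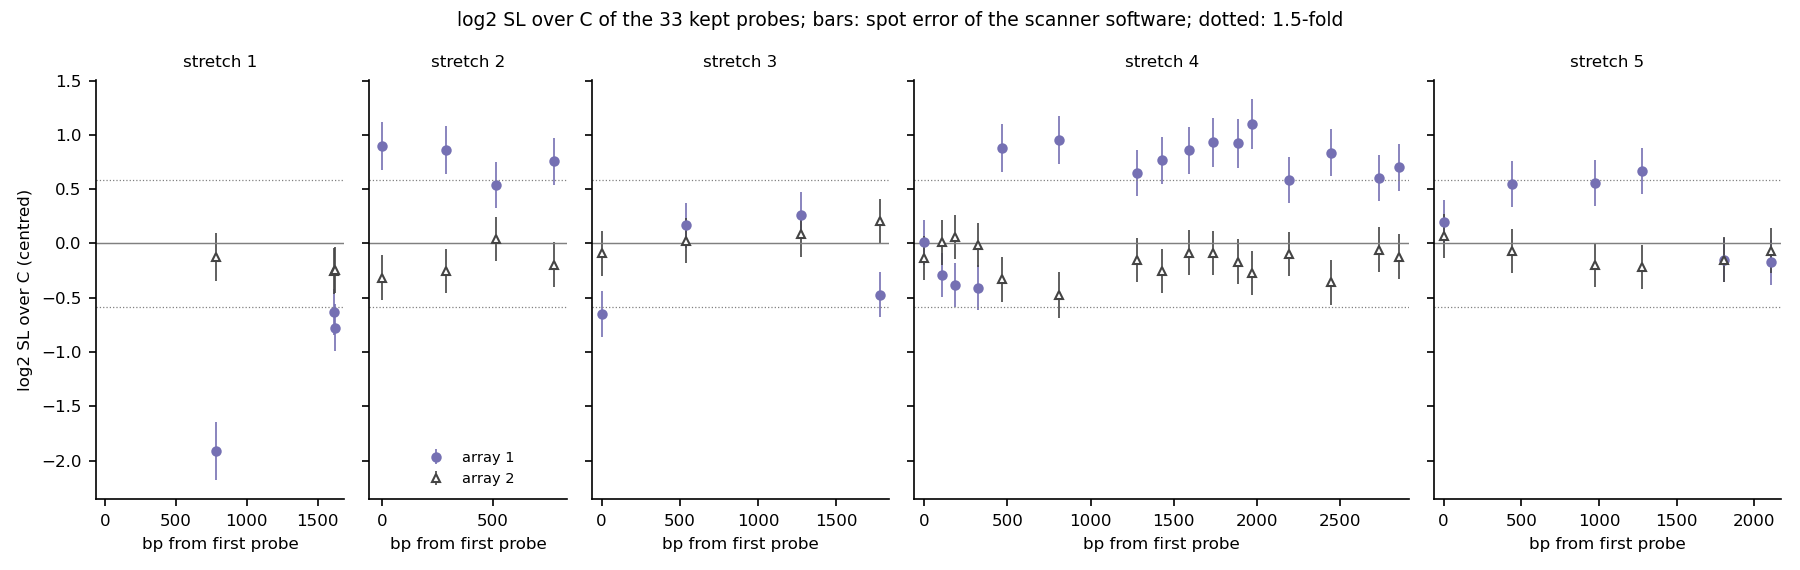
Log2 SL over C, centred on each array's median, for the 33 measurable probes against distance in bp from the first probe of the stretch, on array 1 (purple circles) and array 2 (open triangles). Bars are the spot error of the scanner software and dotted lines mark 1.5-fold. In stretch 4 the array 1 values rise from between -0.41 and 0.01 in the first 4 probes to between 0.59 and 1.1 in the next 12, and the array 2 values stay between -0.47 and 0.06.

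Stretch 5 held 3 regions within 2157 bp, 2 of moderate and 1 of very high signal. The region from 38088582 to 38089070 had SL signals of 7427 and 3810 on arrays 1 and 2 and C signals of 5578 and 3919, and its log2 SL over C was 0.37 and -0.00. The region from 38089558 to 38089908 had SL signals of 3695 and 1335 and C signals of 2350 and 1586, with ratios of 0.61 and -0.21. Both were thus higher in SL on array 1 only, and their means were 0.19 ± 0.33 and 0.20 ± 0.34 (SE, n = 2, limma adjusted p = 0.9995 for each).

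The third region of stretch 5, from 38090384 to 38090738, was the brightest of the locus and the most alike on the arrays. Its SL signals were 31413 and 25183 on arrays 1 and 2 and its C signals 34261 and 27889, above at least 99.0% of the other chromosome 18 regions in every channel. SL was slightly below C, at a log2 SL over C of -0.16 on array 1 and -0.11 on array 2. Both of its probes were below 0 on both arrays. The mean was -0.14 ± 0.33 (SE, n = 2, limma adjusted p = 0.9995), with an interval from -0.83 to 0.56. It lay 476 bp from the end of a region that was 1.53-fold higher in SL on array 1, so on that array neighbouring regions of this stretch differed in sign.

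The arrays pulled apart in part of the locus. Of the 6 tested regions 4 were above 0 on array 1 and below 0 on array 2, a pattern held by 30.2% of all regions and 20.4% of the others on the chromosome, and 1 of the 4 was below 0 on array 2 by only -0.00010. Of the 33 probes 19 (57.6%) were higher in SL on array 1 and lower on array 2, against 21.8% of the other chromosome 18 probes and 30.9% of all probes. These 19 included all 12 later probes of stretch 4 and none from stretches 1 and 3, so the share rests mainly on stretch 4. Only 3 of the 33 (9.09%) had the reverse pattern, 4 were higher in SL on both arrays and 7 (21.2%) lower on both, where the other chromosome 18 probes had 20.5% lower on both. The array 1 and array 2 ratios of the 33 probes had Pearson's r = -0.379 and Spearman's rho = -0.511, against -0.345 and -0.316 over the other chromosome 18 probes and -0.420 and -0.371 over all probes. These describe probes of the same 2 hybridisations that share fragments, and carry no p. The sign of each ratio was set from the dye that the labels assign to SL. Had the dyes not been exchanged, the Cy5 over Cy3 values given above would be the litter contrast.

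In its median ratio, the locus was shifted in opposite directions on the arrays, although the regions at 36859441 and 38090384 were below 0 on both. The median log2 SL over C of its 6 tested regions was 0.46 on array 1 and -0.17 on array 2, against -0.16 and 0.05 for the other 515 regions of the chromosome. The differences were 0.62 and -0.22, a mean of 0.20 ± 0.59 (SD, n = 2), smaller than the spread between the arrays. With the single-probe regions counted as well, the mean difference was 0.10 ± 0.36 (SD, n = 2). Counted over probes, 16 of 33 were past 1.5-fold higher in SL on array 1, of which 12 were the later probes of stretch 4, against 15.8% of all probes and 9.88% of the others on the chromosome. Past 1.5-fold lower were 4 of 33, against 14% and 18.6%. On array 2 none was past 1.5-fold either way, against 6.64% and 7.75%.

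**Figure D3:**
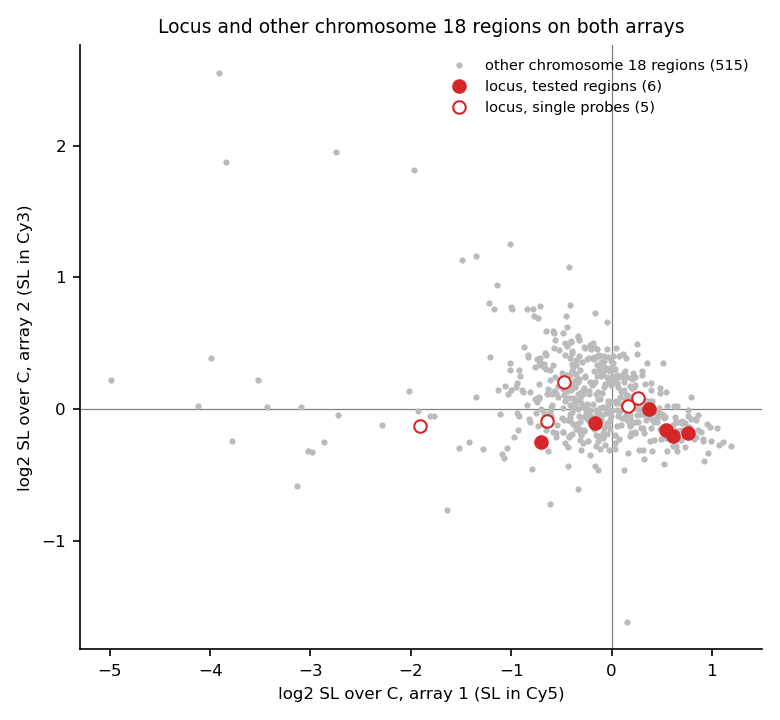
Log2 SL over C on array 1 (x axis) against array 2 (y axis) for regions: 515 other chromosome 18 regions in grey, the 6 tested locus regions as filled and the 5 single-probe locus regions as open red circles. Locus points run from -1.91 to 0.77 on array 1 and only from -0.25 to 0.21 on array 2, and none of the tested regions lies above 0 on both arrays.

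Over all array probes, brightness moved with the ratio on both arrays. In the brightest quintile the median log2 SL over C of all array probes was 0.40 on array 1 and -0.12 on array 2, and in the dimmest quintile it was -0.14 and 0.25. The 23 locus probes of the brightest quintile had medians of 0.70 and -0.13, and the 371 other chromosome 18 probes of that quintile had -0.10 and -0.11. In the dimmest quintile the other chromosome 18 probes had -0.16 and 0.26. Their array 1 medians lay between -0.26 and -0.08 over the quintiles, in no order of brightness. On array 1, 15 of those 23 locus probes were past 1.5-fold higher in SL, as were 93 of the 371 and 7004 of the 17295 on the whole array. The 4 locus probes of the second quintile, 3 of them from stretch 1, had medians of -0.70 and -0.19, against -0.08 and 0.17 for other chromosome 18 probes of that quintile. Loess, which removes the average trend on brightness within each array, moved the 6 regions unequally. Mean log2 SL over C went from 0.19 to 0.06 in stretch 4 and from 0.29 to 0.12 in stretch 2, while it grew in size from -0.48 to -0.52 at 36859441 and from -0.14 to -0.33 at 38090384. The region at 38088582 went from 0.19 to 0.14 and the region at 38089558 from 0.20 to 0.19. The shift of the locus against the other chromosome 18 regions went from 0.20 to 0.15. With each probe length centred on its own median instead of loess, the mean at 36859441 shrank in size from -0.48 to -0.30. Under that setting the mean was 0.24 in stretch 2, 0.17 in stretch 4 and 0.12 at 38088582. It was 0.31 at 38089558 and -0.20 at 38090384.

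**Figure D4:**
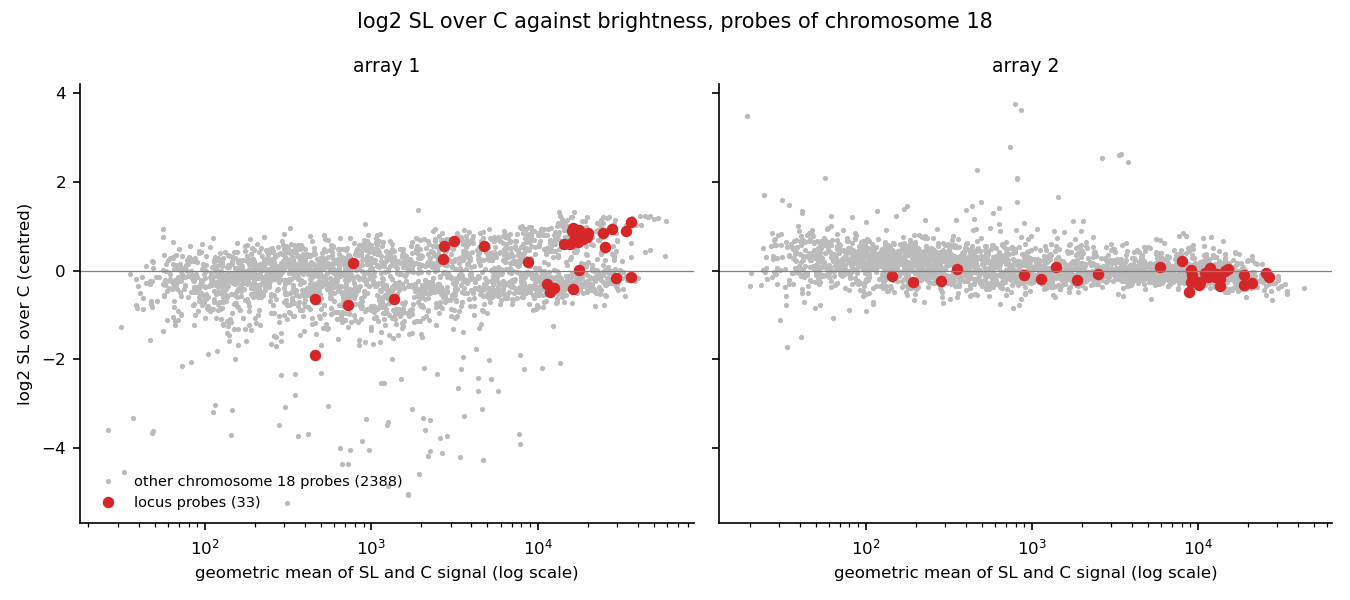
Log2 SL over C (y axis, centred) against the geometric mean of the SL and C signals (x axis, log scale) for the 33 locus probes (red) and 2388 other chromosome 18 probes (grey), on array 1 (left) and array 2 (right). Bright probes on array 1 form an upper and a lower band, and the locus has probes in both: the 12 later probes of stretch 4 lie between 0.59 and 1.1 and the 4 earlier ones between -0.41 and 0.01.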

How the data were processed

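Genomic DNA of pooled hypothalami was digested, amplified and hybridised on 2-colour Agilent arrays on 1 slide. The authors extracted spots with Agilent Feature Extraction (version 9.1.3.1 in the submitters' processing notes, 10.5.1.1 per the file headers). The deposited intensity of each channel had its background subtracted and its dyes normalised, and the file headers give fitted multiplicative detrend values for array 1 alone. The deposited log10 ratio of Cy5 over Cy3, its deposited spot error and the authors' value table, which equals that ratio turned to SL over C within 0.005, served as alternatives or as error.

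Of 90535 genomic spots 44 with an outlier flag were left out, and the 86472 probes kept had, on each array, SL or C well above background. Log2 SL over C was centred on each array's median. Region means were fitted over the whole array with limma 3.58.1 in R 4.3.3 (intercept, eBayes, two-sided, Benjamini-Hochberg), requiring at least 2 probes. The code of the fit was checked on simulated data with independent arrays and a smaller spread. That check gives no power or error rate for these data. The rule named regions by size and agreement of the difference, dye contrast, number of probes and signal, which took in all 6 tested regions; the 5 single-probe regions fall outside it and were named after their values were seen. Members and lists were chosen with earlier results of these data known. Precision is limited by the 2 arrays.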

Additional observations from a re-analysis of the deposited data

How the results depend on the processing

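Under every setting run (normexp, here on median signals with offset 50, loess, the Agilent ratio, the authors' table, other filters, gaps, probe minimums, centrings, variance priors and thresholds) the counts of called locus regions, called locus probes, dye calls and regions past the fold in opposite directions stayed 0. The count past 1.5-fold the same way was 0 to 3 with 1 array left out, 3 on array 1 and 0 on array 2; 1 array leaves no test. The shift of the locus in log2 SL over C ran from -0.22 to 0.62 when arrays were left out, and its sign therefore depends on the array. The difference in C signal was 2.61 without the dim filter, 1.24 with single probes, 3.53 with at least 3 probes and 3.98 in the trimmed window. It ran from 2.80 to 3.35 with 1 array. With gaps of 1000 bp the 3 regions of stretch 5 merged, and the log2 SL over C of 38090384 became 0.085. Without array 1 the 4 regions with positive means (37132581, 37946003, 38088582 and 38089558) fell to between -0.21 and -0.00, and without array 2 they lay between 0.37 and 0.77. The other settings kept the sign of every tested region. Signal over background limits only stretch 1, where 3 of 6 probes could not be measured. Each array is itself a pair of SL and C, so the fit of the ratios is already paired.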
